A study of Mus musculus with 62 samples.

Results

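Oxidative phosphorylation is the last stage of respiration in mitochondria. Complex I takes electrons from NADH and complex II takes them from succinate, complex III passes them to cytochrome c, complex IV hands them to oxygen, and ATP synthase uses the proton gradient that results. Most subunits are encoded in the nucleus and a small group in mitochondrial DNA, and dedicated assembly factors put the complexes together. In the myeloid lineage, respiration is known to be prominent in dividing progenitors and low in mature neutrophils, while monocytes keep both respiration and glycolysis.

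The nuclear genes of this machinery were taken from the count table by symbol: names that start with Nduf, Uqcr, Cox4 to Cox8 or Atp5, and the 4 Sdh genes. Names ending in -ps (7 rows) were dropped. Of 97 symbols that matched, 88 reached the level required, a mean of 1 CPM or more over all libraries (counts scaled to a library total of 1000000), out of 37620 genes in the table. The 88 comprise 36 subunits of complex I, 8 complex I assembly factors (Ndufaf1 to Ndufaf8), 4 genes of complex II, 8 of complex III, 15 of complex IV with Ndufa4 and Cox7a2l, and 17 of ATP synthase. Beyond the names, the genes were selected on 1 measured value, the mean CPM over all libraries. Cox7a1 lay nearest above the limit at a mean of 1.94 CPM, followed by Atp5g2 at 3.53 and Cox6b2 at 4.94. The highest of the 9 genes left out was Ndufa4l2 at 0.166 CPM. No read was counted on the 37 mitochondrial genes in the table, so the subunits encoded in mitochondrial DNA were not analysed here.

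Bulk RNA was sequenced from mouse cells. ER-Hoxb8 cells are bone marrow progenitors that an estrogen-dependent Hoxb8 fusion protein holds in an immature, dividing state in culture with stem cell factor, and here 24 clones (1 to 13 and 15 to 25) were each sequenced once as granulocyte-monocyte progenitors and once as monocytic cells. The other 14 libraries came from primary monocytes sorted from mouse bone marrow: classical, intermediate and nonclassical monocytes and the groups named class 1, 2, 3 and 4, with 2 libraries each. The labels give no strain, age, genotype or sort markers, and they do not say how the classes were defined or whether a group's libraries came from separate animals, so p-values in the primary groups measure only the spread between these libraries. All clone libraries share the Hoxb8 fusion as a background, and there is 1 library per clone and state. The sample titles mark every progenitor library Plus and every monocytic library Minus. The state and any treatment behind these words cannot be told apart.

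Library totals ran from 12626427 to 47314297 counts in the progenitors of clones 1 to 13 and from 22853677 to 34542789 in their monocytic cells. In clones 15 to 25 they ran from 362033 (clone 21) to 16506340 and from 1827322 to 9120772, and in the primary libraries from 21153002 to 35019854. The runs of clone numbers were therefore treated as 2 clone sets. Marker genes followed the progenitor label: Kit, Cd34, Flt3 and Myb summed to 1880 to 4843 CPM in progenitors and 86.0 to 1036 CPM in monocytic cells. In the latter, 7 monocyte markers summed to a median of 31174 CPM, while 9 neutrophil markers summed to a median of 60292 CPM with a range of 264 to 195410, so the monocytic libraries also held neutrophil transcripts. Mast cell and basophil markers (5 genes) summed to a median of 4901 CPM in progenitors, with a range of 826 to 11174. That median lay above the 3908 CPM of the 4 progenitor markers. In monocytic cells the mast cell and basophil median was 156 CPM, with a range of 0 to 6726. Cell cycle genes (Mki67, Top2a, Ccnb1, Cdk1, Mcm2 and Mcm7) summed to 1131 to 2397 CPM in progenitors and 139 to 3021 CPM in monocytic cells. The part of these differences in the results below was not tested. Levels from here on are CPM with library totals scaled by TMM factors (the trimmed mean of M values) over all 62 libraries, while the limit of 1 CPM used plain totals.

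In clones 1 to 13 the summed transcripts were lower in monocytic cells, while clones 15 to 25 were mixed. The 88 genes summed to 8536 CPM in the lowest progenitor library, 15643 in the median one and 24297 in the highest, and to 6885, 11012 and 15191 CPM in the monocytic libraries. The states overlapped, and in 17 of 24 clones the monocytic library had the lower sum: 12 of 13 in clones 1 to 13, with a mean log2 ratio of -0.67, and 5 of 11 in clones 15 to 25, with a mean of -0.12. For single complexes, the mean log2 ratio of the summed CPM (monocytic to progenitor) was -0.87 ± 0.43 (SD, n = 24) for the complex I assembly factors, which were lower in all 24 clones, and -0.62 ± 0.42 for ATP synthase, lower in 21 clones. It was -0.51 ± 0.55 for complex III, -0.31 ± 0.63 for complex IV, -0.23 ± 0.55 for complex I and -0.20 ± 0.35 for complex II. In clones 15 to 25 the means for complexes I, II and IV were above 0, at 0.09, 0.06 and 0.06. In bulk RNA, fewer cells of a kind and less RNA per cell cannot be told apart.

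**Figure D1:**
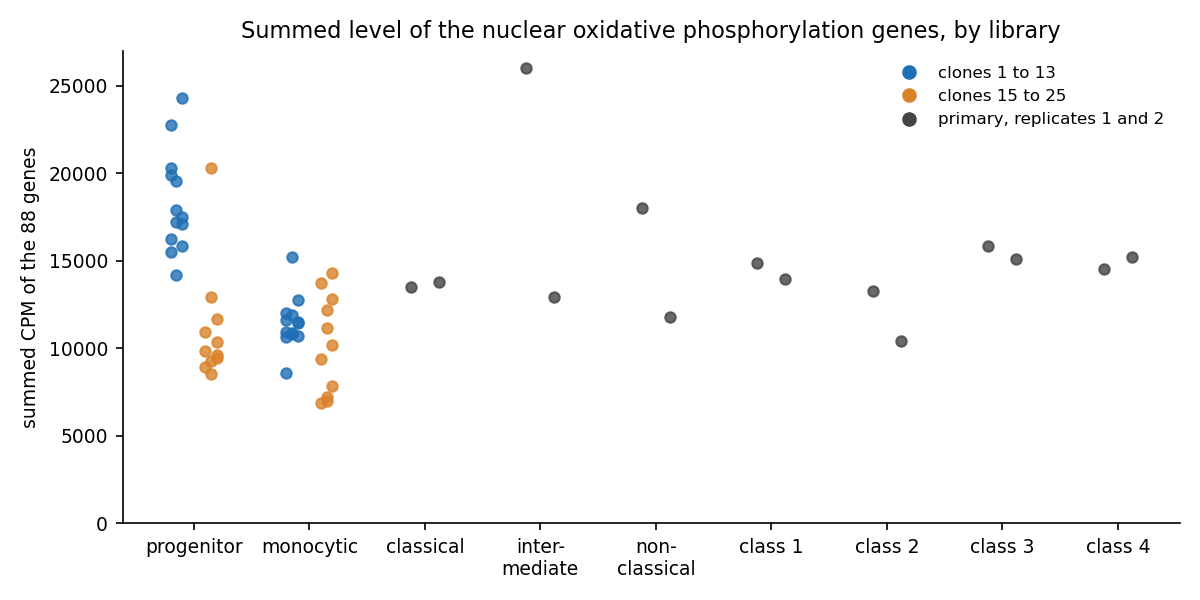
Summed CPM of the 88 genes (vertical axis) in each of the 62 libraries, by group; blue points are clones 1 to 13, orange points clones 15 to 25 and dark points the primary libraries (replicate 1 left, replicate 2 right). Progenitors of clones 1 to 13 reach from 14185 to 24297 CPM, those of clones 15 to 25 from 8536 to 12921 apart from clone 24 at 20295, and replicate 1 of the intermediate monocytes stands at 26029.

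Gene by gene, 42 of the 87 genes tested fell from progenitor to monocytic cells and 4 rose, while 41 did not pass (edgeR quasi-likelihood test with the clone as a block, Benjamini-Hochberg adjusted p under 0.05 over all 11614 genes tested). Atp5g2 was too low in the clones to be tested. Among all genes tested, 40.1% were lower and 38.5% higher in monocytic cells, so the share of falling genes among the 87 was near the background and the share of rising genes below it. The median log2 change was -0.30 for the 87 genes and -0.02 for all genes. Of the 87, 9 were lower in every clone (Atp5a1, Atp5b, Atp5s, Ndufab1, Ndufaf2, Ndufaf4, Ndufaf6, Uqcrc2 and Cox6a2), against 11.1% of all genes, and none was higher in every clone, against 12.2%. No gene's 24 progenitor libraries stood clear of its 24 monocytic libraries, against 5.04% of all genes. With column totals in place of TMM factors, the median of all genes moved to -0.45, and 71 genes were lower and 1 higher, against 55.5% and 26.0% of all genes.

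The complex I assembly factors changed the most as a group: 6 of 8 fell and none rose, with a median log2 change of -0.67. Of all genes tested, 40.1% fell and 38.5% rose. Ndufaf4 is one of the factors needed early in complex I assembly. Its level in progenitors was 35.0 CPM in the lowest clone, 58.0 in the median one and 100.2 in the highest, and in monocytic cells 3.04, 14.9 and 40.9. Every clone fell, by 1.90 on the log2 scale (SE 0.14, edgeR adjusted p = 1.89e-12). Ndufaf2, which holds the place of the subunit Ndufa12 in a late assembly intermediate, had progenitor levels of 8.75, 31.9 and 54.9 CPM and monocytic levels of 2.15, 9.35 and 22.1. It fell by 1.62 (SE 0.15, edgeR adjusted p = 1.81e-10). Ndufaf6, another assembly factor, went from 10.9, 18.3 and 37.9 CPM to 0.868, 6.96 and 11.3, a fall of 1.59 (SE 0.16, edgeR adjusted p = 9.48e-10). These 3 genes also fell in each clone set fitted alone. Ndufaf3 and Ndufaf7 did not pass, with log2 changes of 0.15 and -0.08.

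Within complex I, 16 of 36 subunits fell, 3 rose and 17 did not pass, with a median log2 change of -0.22. Of all genes tested, 40.1% fell and 38.5% rose. Of the 7 nuclear subunits of the catalytic core, 5 fell and none rose (median -0.44), and of the 29 accessory subunits 11 fell and 3 rose (median -0.18).

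The largest fall among complex I subunits was that of Ndufa12, an accessory subunit that takes the place of Ndufaf2 when the complex matures. Its levels were 32.6, 60.0 and 94.2 CPM in progenitors and 6.51, 23 and 52.7 in monocytic cells, a fall of 1.18 (SE 0.18, edgeR adjusted p = 1.34e-06). Ndufv3, an accessory subunit of the NADH-binding arm, went the other way. It was at 41.5, 91.6 and 129 CPM in progenitors and 48.8, 150 and 357 CPM in monocytic cells, and the highest progenitor lay below the monocytic median. Its rise of 0.84 (SE 0.13, edgeR adjusted p = 1.81e-06) was seen in 20 of 24 clones and passed in both clone sets alone. The other subunits that rose, the accessory genes Ndufb3 (0.38, edgeR adjusted p = 0.0308) and Ndufa8 (0.29, edgeR adjusted p = 0.025), passed in clones 15 to 25 alone and not in clones 1 to 13 alone.

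**Figure D2:**
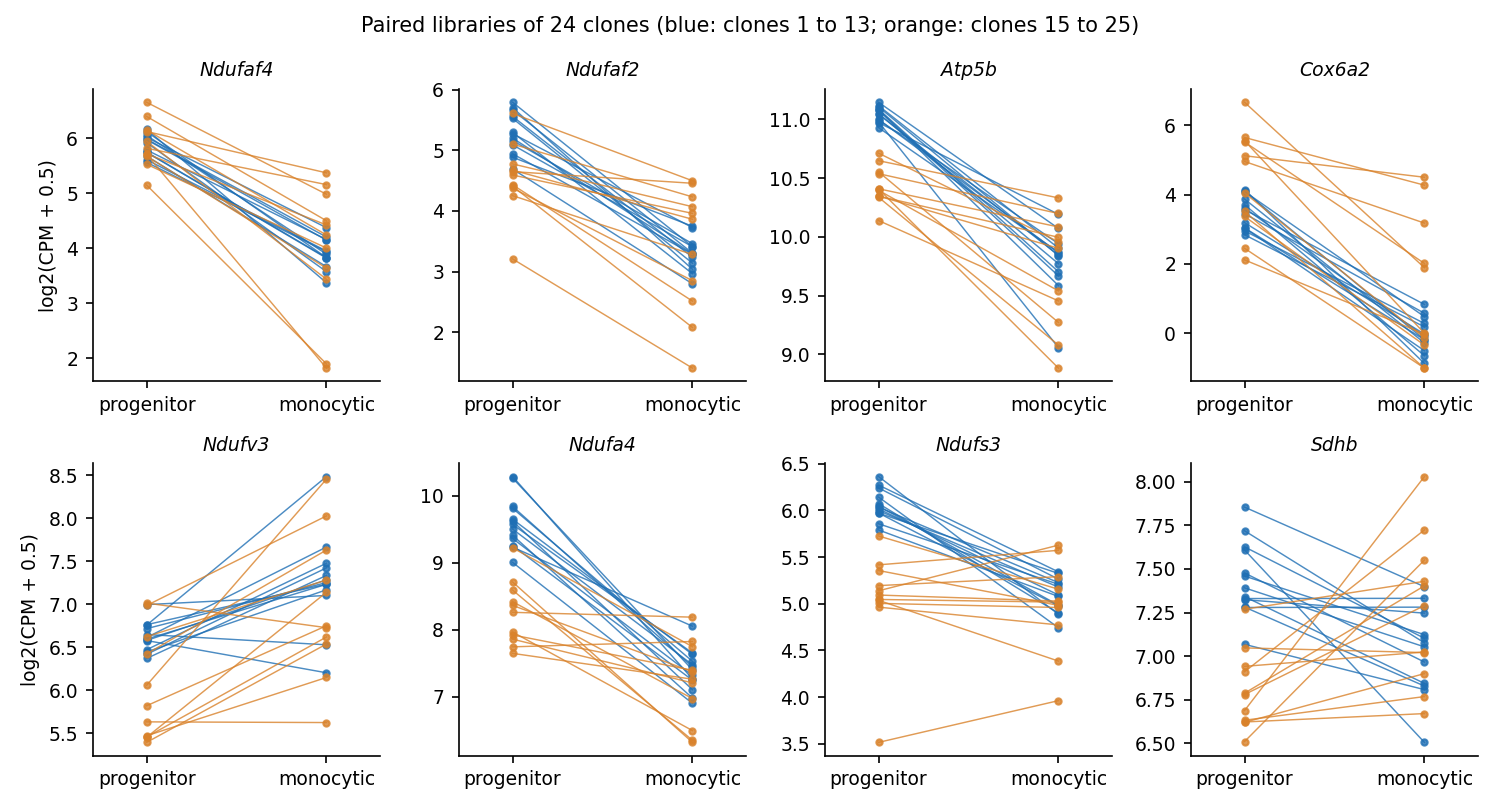
Level of 8 genes in the paired libraries of each clone on a log2(CPM + 0.5) axis; each line joins the progenitor and the monocytic library of 1 clone, blue for clones 1 to 13 and orange for clones 15 to 25. Ndufaf4, Ndufaf2, Atp5b and Cox6a2 fall in all 24 clones and Ndufv3 rises in 20, while Ndufs3 and Sdhb start lower in most orange progenitors than in the blue ones.

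Complex II, which also serves the citric acid cycle, changed little. Sdhd, a membrane anchor, was at 94.0, 248 and 479 CPM in progenitors and 79.7, 184 and 275 CPM in monocytic cells, and it alone passed the test, with a fall of 0.35 (SE 0.10, edgeR adjusted p = 0.0027). The flavoprotein gene Sdha had medians of 337 and 277 CPM and a log2 change of -0.13 that did not pass, the iron-sulfur gene Sdhb medians of 154 and 136 and a change of 0.03, and the second anchor Sdhc medians of 185 and 138 and a change of -0.17. In clones 1 to 13 alone all 4 were lower past the threshold, against 39.3% of all genes (40.1% over all clones). In complex III, 5 of 8 genes fell and none rose (median -0.35), against 40.1% and 38.5% of all genes. Uqcrq, a small subunit, went from 125, 279 and 669 CPM to 58.2, 142 and 301, a fall of 0.89 (SE 0.17, edgeR adjusted p = 3.87e-05), in 19 of 24 clones. The core protein gene Uqcrc1, with the highest mean CPM of complex III, fell by 0.37 (SE 0.11, edgeR adjusted p = 0.00322).

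In complex IV 6 of 15 genes fell and 1 rose (median -0.17), against 40.1% and 38.5% of all genes. Cox6a2 encodes the heart and muscle form of subunit 6a. It had progenitor levels of 3.84 CPM in the lowest clone, 12.1 in the median one and 100.4 in the highest, and monocytic levels of 0, 0.487 and 22.1. It fell in 24 of 24 clones, by 4.03 (SE 0.35, edgeR adjusted p = 3.24e-11). The ubiquitous form Cox6a1 was at 101, 295 and 443 CPM in progenitors and 115, 228 and 362 in monocytic cells, with a log2 change of -0.01 (SE 0.14) that did not pass and that turned positive in clones 15 to 25 (0.55) and without clone 21 (0.01) or clone 24 (0.0045). In subunit 6b, Cox6b2, known as the testis form, fell by 3.89 (SE 0.46, edgeR adjusted p = 2.01e-08) from a median of 5.71 CPM to 0.238, and Cox6b1 changed by -0.07 (medians 276 and 224 CPM) without passing. Reads of Cox6a2 and Cox6b2 were few: in monocytic libraries they ran from 0 to 162 and from 0 to 228, and 7 of these libraries had none for Cox6b2.

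Other complex IV families showed smaller changes. Ndufa4, counted here with complex IV, fell by 1.65 (SE 0.18, edgeR adjusted p = 4.38e-09), from 200.01, 598 and 1245 CPM in progenitors to 79.4, 162 and 291 in monocytic cells, in 23 of 24 clones. Cox7a2l, which joins complexes III and IV in supercomplexes, rose by 0.32 (SE 0.13, edgeR adjusted p = 0.0306) with medians of 112 and 142 CPM, and changed by -0.12 under column totals. The muscle form Cox7a1 (medians 1.95 and 2.58 CPM, change 0.32) and the liver form Cox7a2 (135 and 142 CPM, 0.03) did not pass. Cox7b fell by 0.58 and Cox8a by 0.36 (edgeR adjusted p = 0.00203 and 0.00839). Cox4i1, the most abundant complex IV gene by CPM, was at 291, 620 and 1365 CPM in progenitors and 389, 684 and 1224 in monocytic cells and did not pass (0.17, SE 0.14).

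In ATP synthase 8 of 16 genes tested fell and none rose (median -0.28), against 40.1% and 38.5% of all genes. The catalytic subunit gene Atp5b had the highest level per kilobase of exon of the 88 genes in progenitors, 932 ± 202 CPM per kb (SD, n = 24), next to Ndufa4 at 930 ± 486 and Cox4i1 at 859 ± 393, levels that lie within each other's spread. In monocytic cells Cox4i1 came first at 885 ± 262 CPM per kb, then Atp5e at 601 ± 230 and Atp5b at 463 ± 110. By CPM, Atp5b went from 1127, 1981 and 2266 in progenitors to 471, 925 and 1288 in monocytic cells. It fell in every clone, by 0.97 (SE 0.10, edgeR adjusted p = 1.38e-09). The genes Atp5g1, Atp5g2 and Atp5g3 encode the same c subunit of the rotor ring behind different import signals. Atp5g1 went from 7.51, 16.6 and 35.0 CPM to 0.868, 6.21 and 13.1, a fall of 1.38 (SE 0.17, edgeR adjusted p = 4.31e-08). Atp5g3, the major c subunit gene here, fell by 0.37 (SE 0.14, edgeR adjusted p = 0.0224) from a median of 377 to 260 CPM. Atp5g2 had 0 to 16 reads in each clone library, and 23 of the 48 had none.

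The upstream sequence of a few of these genes is shown because nuclear respiratory genes are known for sites of nuclear respiratory factor 1 (NRF1) and of ETS factors near their starts. Promoter windows of 300 bases (250 before the start, 50 after, the first start listed for a gene, RefSeq on GRCm38.p6) were found for 72 of the 88 genes. The NRF1 motif (GCGCANGCGC, either strand) was in 18 of these 72 windows (25%) and in 4.78% of 27025 promoter windows of all genes. The ETS motif (CCGGAAG) was in 17 (23.6%, against 9.12%), the YY1 motif (AAGATGG) in 10 (13.9%, against 6.48%) and the E-box CACGTG in 5 (6.94%, against 7.24%). The 120 bases just before the start are given 5′ to 3′ on the gene's strand, with motif matches in capitals. They are those of Sdha and Sdhd of complex II, the former with 3 NRF1 matches and the latter with an NRF1 and an ETS match, of Ndufs3, the gene whose change differed most clearly between the clone sets, of the falling genes Ndufaf4, Atp5g1 and Ndufa4, and of the rising gene Ndufv3. The last pair has no match in this stretch.
Sdha: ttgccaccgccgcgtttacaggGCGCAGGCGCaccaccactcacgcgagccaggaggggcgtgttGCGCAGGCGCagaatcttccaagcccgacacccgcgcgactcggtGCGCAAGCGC
Sdhd: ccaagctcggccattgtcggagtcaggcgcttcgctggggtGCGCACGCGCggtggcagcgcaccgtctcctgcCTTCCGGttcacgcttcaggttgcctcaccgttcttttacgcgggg
Ndufs3: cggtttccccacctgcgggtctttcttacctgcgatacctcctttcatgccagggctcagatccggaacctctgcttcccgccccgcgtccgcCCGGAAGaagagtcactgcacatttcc
Ndufaf4: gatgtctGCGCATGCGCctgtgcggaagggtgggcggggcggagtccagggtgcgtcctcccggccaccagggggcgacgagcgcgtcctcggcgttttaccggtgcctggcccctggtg
Atp5g1: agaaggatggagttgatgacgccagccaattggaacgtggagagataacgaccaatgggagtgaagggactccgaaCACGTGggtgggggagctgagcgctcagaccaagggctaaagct
Ndufa4: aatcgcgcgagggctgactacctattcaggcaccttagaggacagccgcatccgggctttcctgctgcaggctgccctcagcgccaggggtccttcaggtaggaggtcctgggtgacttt
Ndufv3: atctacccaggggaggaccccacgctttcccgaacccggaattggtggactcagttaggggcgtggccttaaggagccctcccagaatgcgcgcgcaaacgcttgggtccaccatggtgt

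These stretches lie at chr13:74350241-74350360 (minus strand) for Sdha, chr9:50603850-50603969 (minus) for Sdhd, chr2:90904722-90904841 (minus) for Ndufs3, chr4:24897963-24898082 (plus) for Ndufaf4, chr11:96075632-96075751 (minus) for Atp5g1, chr6:11907451-11907570 (minus) for Ndufa4 and chr17:31519995-31520114 (plus) for Ndufv3. The calls of the paired comparison were counted with and without each motif among the genes with a window that were tested. Over all genes tested, 40.1% fell and 38.5% rose. Of 17 with the NRF1 motif, 9 fell and 1 rose (median log2 change -0.35), and of 54 without it, 25 fell and 3 rose (median -0.25). Of 17 with the ETS motif, 7 fell and none rose (median -0.07), and of 54 without it, 27 fell and 4 rose (median -0.33). No test was made of these differences, a match is no proof of a bound site, and a missing match says only that these letters are not in this window.

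The state change differed between the clone sets. Fitted alone, clones 1 to 13 had 65 of 87 genes lower and 2 higher (against 39.3% and 40.9% of all genes), with a median log2 change of -0.54. In clones 15 to 25 alone, 12 of 85 were lower and 12 higher (against 29.9% and 29.1%), with a median of 0.12. Genes lower in both sets on their own numbered 12 (Atp5a1, Atp5b, Atp5g1, Atp5s, Ndufab1, Ndufs1, Ndufaf2, Ndufaf4, Ndufaf6, Uqcrc2, Cox6a2 and Ndufa4), against 25.4% of all genes tested in both. In 46 genes the sets had opposite signs, whether or not a change passed. The share of all genes with opposite signs is not given, so this count cannot be read as particular to the respiratory genes.

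The interaction of state with clone set passed for 36 of 87 genes, all with the larger value in clones 15 to 25, against 6.44% of all genes in that direction, and for none in the other, against 17.3%. The median difference was 0.61 for the 87 genes and -0.11 for all genes. By complex it passed for 18 of 36 subunits of complex I, 3 of 8 assembly factors, 1 of 4 genes of complex II, 3 of 8 of complex III, 4 of 15 of complex IV and 7 of 16 of ATP synthase. Without clone 24 it passed for 46, against 8.11% of all genes. Ndufs3, a core subunit of complex I, fell by 0.91 in clones 1 to 13 and had a change of 0.00 in clones 15 to 25, each fitted alone, and the difference in the joint fit was 0.87 (SE 0.16, edgeR adjusted p = 0.000391). The differences were 0.83 (SE 0.18) for Sdhb, 0.95 (SE 0.22) for Cox6a1 and 1.15 (SE 0.28) for Ndufa4 (edgeR adjusted p = 0.00153, 0.00341 and 0.00494).

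**Figure D3:**
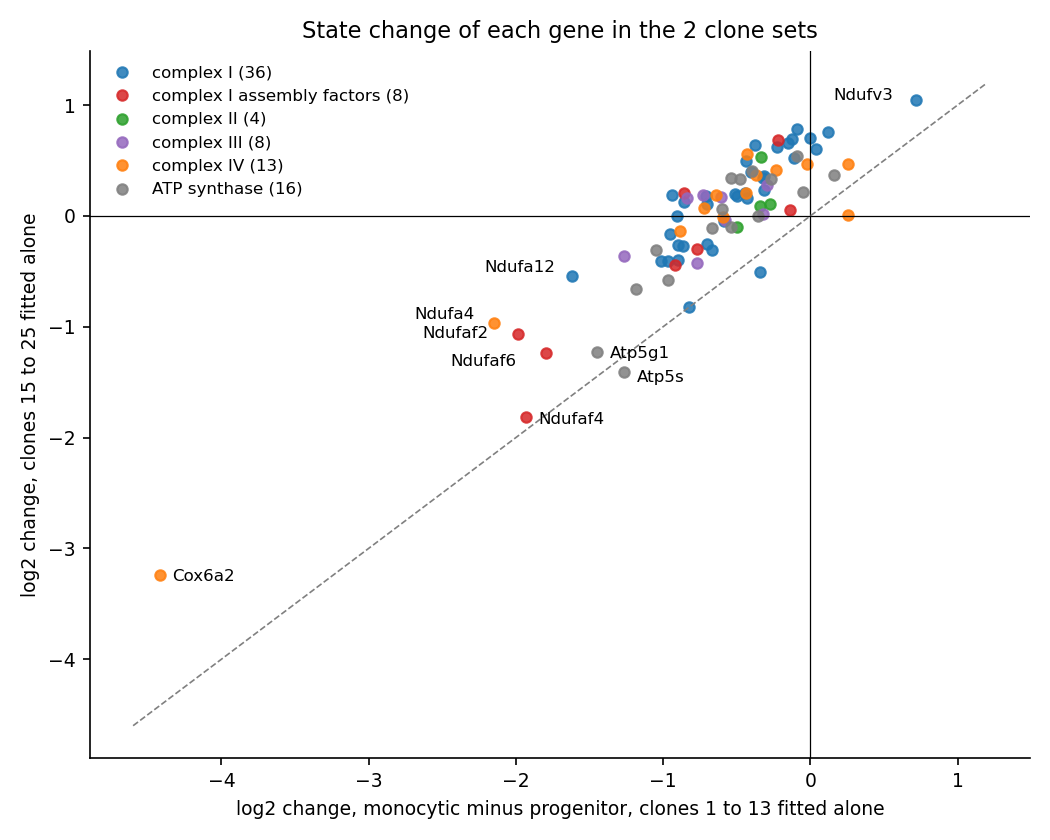
Log2 change from progenitor to monocytic cells of each gene in clones 1 to 13 fitted alone (horizontal) against clones 15 to 25 fitted alone (vertical), coloured by complex, with the number of genes in brackets; the dashed line marks equal change. Most points lie above the line, and Cox6a2, Ndufaf4, Ndufaf2, Ndufaf6, Atp5g1, Atp5s and Ndufa4 are below 0 on both axes.

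A comparison chosen after seeing the data set clones 15 to 25 against clones 1 to 13 within each state. It uses the same progenitor libraries as the interaction, so the results are not independent. In progenitors, 66 of 87 genes were lower in clones 15 to 25 and 2 higher (Ndufab1 and Cox6a2), against 26.8% and 31.2% of all genes, with a median log2 difference of -0.64 (0.02 for all genes). Without clone 24, the progenitor that stood apart in the summed level, 77 were lower, against 32.1% of all genes. In monocytic cells 3 genes were lower (Sdhd, Atp5l and Cox8a) and 3 higher (Ndufa10, Ndufab1 and Cox6a2), against 2.74% and 4.64%, and the median was 0.04. Ndufs3 was at 54.8, 64.9 and 81.7 CPM in the lowest, median and highest progenitor of clones 1 to 13 and at 10.9, 33.6 and 52.4 in those of clones 15 to 25, so the sets did not overlap, and it was lower by 0.83 on the log2 scale (log2 difference -0.83, SE 0.12, edgeR adjusted p = 4.64e-06). In monocytic cells its medians were 33.7 and 31.9 CPM. The sets stood apart in this direction in progenitors for 6 of the 88 genes (Atp5a1, Atp5b, Ndufs3, Ndufv1, Ndufaf3 and Uqcrc2), against 3.12% of all genes.

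Ndufa4 had progenitor levels of 513, 759 and 1245 CPM in clones 1 to 13 and 200.01, 306 and 596 in clones 15 to 25, which overlap, with a log2 difference of -1.24 (SE 0.19, edgeR adjusted p = 7.87e-06). Its monocytic medians were 169 and 153 CPM. Ndufaf4 did not show this: its progenitor medians were 60.1 and 56.0 CPM, with a log2 difference of 0.17 that did not pass.

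In progenitors, the difference between the clone sets moved with transcript length. The 88 genes are short, with a median summed exon length of 1011 bases against 3223 for all genes tested. Among progenitors, the median log2 difference of all genes between clones 15 to 25 and clones 1 to 13 was -0.55 for genes of up to 750 bases, -0.46 for over 750 to 1500, -0.17 for over 1500 to 3000 and 0.26 for longer genes. The respiratory genes of the same lengths had medians of -0.80 (28 genes), -0.67 (35), -0.51 (19) and -0.33 (5). Among genes of over 750 to 1500 bases, 29 of 35 respiratory genes and 54.0% of all genes were lower. In monocytic cells the same bins of all genes had medians of -0.09, 0.02, 0.06 and 0.07 between the sets. Those of the respiratory genes were -0.01, 0.07, 0.01 and 0.09. In the paired state change over all clones, the length bins of all genes had medians of -0.26, -0.27, -0.11 and 0.08, while those of the respiratory genes ran the other way, at -0.14, -0.30, -0.44 and -0.85. What part length or library preparation has in the difference between clone sets was not tested.

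**Figure D4:**
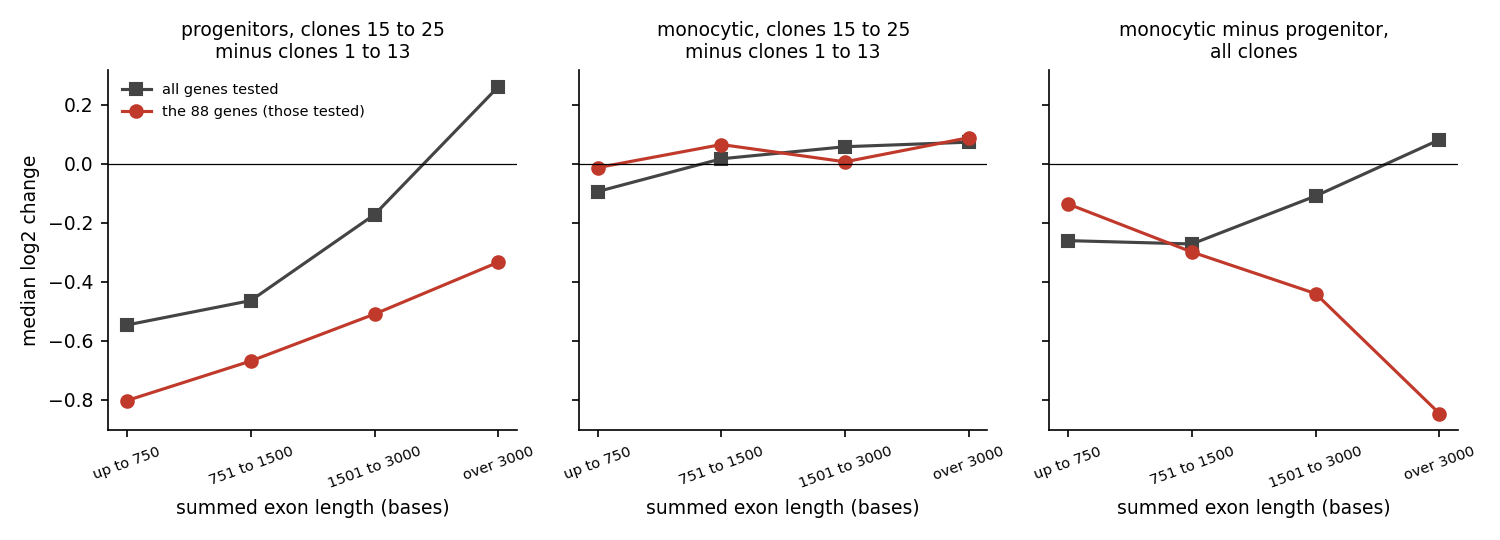
Median log2 change by summed exon length for all genes tested (dark squares) and the respiratory genes tested (red circles), for clones 15 to 25 minus clones 1 to 13 in progenitors and in monocytic cells, and for monocytic minus progenitor over all clones. In progenitors the red points lie below the dark ones in every bin, from -0.80 in the shortest to -0.33 in the longest, and in monocytic cells both stay between -0.09 and 0.09.

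Whether a clone's level as a progenitor returns in its monocytic cells was asked next. The clone effect beyond state passed for 8 of 87 genes, against 11.7% of all genes: Cox6a2, Cox6b2, Sdhd, Cox7a1, Atp5l, Ndufa7, Cox8a and Ndufa11 (edgeR adjusted p from 0.00142 to 0.0496). It passed for none of them in either clone set alone, where 0.299% (clones 1 to 13) and 3.76% (clones 15 to 25) of all genes passed. Across the 24 clones, log2 CPM in progenitors and in monocytic cells correlated past the threshold for 6 of 87 genes, all positively, against 8.27% of all genes (8.11% positively). The 5 with the smallest p were Cox7a1 (r = 0.75, rho = 0.59), Sdhd (r = 0.71, rho = 0.65), Cox6a2 (r = 0.63, rho = 0.47), Cox6b2 (r = 0.61, rho = 0.69) and Atp5l (r = 0.60, rho = 0.57). Their permutation p, adjusted over all genes, were 0.00383, 0.00986, 0.0213, 0.0261 and 0.0311 for r and 0.066, 0.0342, 0.179, 0.0191 and 0.0746 for rho. With the 2 clones left out whose progenitor level is farthest from the median, r became 0.53, 0.70, 0.54, 0.55 and 0.64. The clones fall into their 2 sets, and with the set means removed r was 0.58, 0.16, 0.57, 0.48 and 0.24 and no gene of the 87 passed after adjustment (1.16% of all genes did; 5 of the 87 had an unadjusted permutation p under 0.05).

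The levels of Cox6a2 had a wider range in clones 15 to 25. In clones 1 to 13 its progenitor level lay between 6.66 and 17.2 CPM, and in clones 15 to 25 between 3.84 and 100.4. Monocytic libraries of clones 22, 23 and 17 had 22.1, 18.8 and 8.55 CPM, and their progenitors 34.2, 49.5 and 30.4. Clone 24 had the highest progenitor level, 100.4 CPM, and 3.21 CPM in its monocytic library. Within clones 1 to 13 r was -0.24 and within clones 15 to 25 0.68 (unadjusted permutation p = 0.436 and 0.0229, adjusted 0.867 and 0.26).

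In the primary monocyte subsets no gene passed. The 88 genes summed to 13473 and 13752 CPM in the classical libraries, 26029 and 12905 in the intermediate ones and 18025 and 11757 in the nonclassical ones. Within the intermediate and the nonclassical group the libraries lay on either side of the classical ones. Against classical monocytes, intermediate cells had a median log2 change of 0.75 over the 88 genes (0.12 over all genes) and nonclassical cells one of 0.40 (0.11 over all genes). Of all genes, 1.19% were called higher and 0.918% lower in intermediate than in classical cells, 2.91% and 2.9% in nonclassical than in classical cells, and 0.0% in either direction between nonclassical and intermediate cells. At an unadjusted p under 0.05, edgeR gave 7, 1 and 2 of the 88 in these 3 comparisons, against 21.6%, 23.4% and 12.3% of all genes. DESeq2 called 8 genes higher in intermediate cells (12.7% of all genes) and 1 lower in nonclassical than in intermediate cells (4.35%), and edgeR on all 14 primary libraries called 6 higher in intermediate cells (6.32%). Both comparisons with classical cells share the classical libraries.

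Ndufaf4 had 11 and 12.1 CPM in classical cells and 52.1 and 26.9 in intermediate ones, without overlap, a log2 change of 1.84 (SE 0.55, edgeR adjusted p = 0.152). Uqcr11, a small subunit of complex III, had 77.5 and 68.0 CPM in classical and 408 and 94.9 in intermediate cells. Ndufaf2 had 21 and 24.2 CPM in intermediate cells and 7.01 and 8.93 in nonclassical ones, a log2 change of -1.52 (SE 0.47, edgeR adjusted p = 0.321). Ndufs1 (121 and 100.1 against 80.5 and 70.3 CPM) and Atp5g2 (28.3 and 20.5 against 18.8 and 10.4 CPM) were also lower in both nonclassical libraries than in both intermediate ones. In nonclassical against classical cells, Cox6b2 had 4.03 and 3.49 against 10.3 and 15.1 CPM, Cox6a2 1.47 and 6.36 against 0.465 and 0, and Cox7a1 3.44 and 0.956 against 0.608 and 0.479 CPM. Of the 88 genes, both intermediate libraries lay above both classical ones for 38 and below for 2, against 29.7% and 34.1% of all genes, and the nonclassical libraries above for 33 and below for 12, against 26.2% and 33.7%.

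Marker genes moved with the subsets. Monocyte markers summed to 45255 and 41580 CPM in classical, 12287 and 12874 in intermediate and 18030 and 27270 in nonclassical libraries, and neutrophil markers to 1576 and 1855, 5707 and 5309, and 1654 and 380.1 CPM. Mast cell and basophil markers (5 genes) summed to 17.3 and 7.66 CPM in classical, 4031 and 8613 in intermediate and 1748 and 7040 in nonclassical libraries, and B cell markers (5 genes) to 30.7 and 32.1, 411 and 360, and 1957 and 1764 CPM. Cell cycle genes summed to 2049 and 2229, 890.3 and 1166, and 389 and 409 CPM. Exon length moved too. In intermediate against classical cells the respiratory genes had a median log2 change of 0.98 against 0.72 for all genes up to 750 bases. The medians were 0.72 against 0.62 for over 750 to 1500 bases and 0.18 against 0.21 for over 1500 to 3000. For 5 longer genes the median was 1.54 against -0.17. In nonclassical against classical cells the respiratory genes lay below all genes of like length, at 0.52 against 0.67 up to 750 bases, 0.40 against 0.49 for over 750 to 1500 and -0.10 against 0.22 for over 1500 to 3000, with 5 longer genes at 0.87 against -0.14. The part of each in the subset values was not tested.

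Among the classes, 17 of 88 genes differed over the 4 groups, against 43.8% of all genes (edgeR test of the 3 class terms together). They included 6 of 17 ATP synthase genes, 5 of 36 complex I subunits, 3 of 8 assembly factors, 3 of 15 complex IV genes and none of complexes II and III. Atp5b had 1411 and 1404 CPM in class 1, 961 and 999 in class 2, 1774 and 1525 in class 3 and 1200.1 and 1299 in class 4 (edgeR adjusted p = 0.0148). Of the 17 genes, 16 had their lowest mean in class 2, 12 their highest in class 4 and 5, Atp5b among them, in class 3. The same counts over all genes are not given, so this order cannot be read as particular to the respiratory genes. The summed CPM of all 88 genes was 14834 and 13972 in class 1, 13281 and 10429 in class 2, 15809 and 15075 in class 3 and 14530 and 15206 in class 4. Cell cycle genes were lowest in class 2 and highest in class 3, with 1367 and 1403, 142 and 168, 3071 and 3100, and 1356 and 1401 CPM. Other markers differed too. Monocyte markers summed to 59607 and 55048 CPM in class 1, 70952 and 67107 in class 2 and 25615 and 21991 in class 3. Neutrophil markers summed to 980 and 1580, 1757 and 2048, and 11067 and 6709 CPM. Mast cell and basophil markers summed to 5.03 and 11.4 CPM in class 1 and 876 and 365 in class 3. The part of these markers was not tested. The count of 17 depended on scaling and libraries: it was 48 with column totals (46.7% of all genes), and 7 to 28 when 1 library was left out.

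Against class 1, 2 genes were lower in class 2 (5.95% of all genes were) and none higher (3.34%). Ndufaf2 had 9.80 and 9.36 CPM in class 1 and 3.46 and 2.49 in class 2, a fall of 1.61 (SE 0.35, edgeR adjusted p = 0.028). Cox6a2 had 2.02 and 3.45 CPM in class 1 and 0.102 and 0.0518 in class 2, which rest on 3 reads and 1 read. From 126 reads in class 1 and 4 in class 2, the ratio of class 2 to class 1 was 0.0299 (exact 95% interval 0.00803 to 0.0786, counting error only; edgeR adjusted p = 0.0107). Leaving out either class 2 library ended both calls (edgeR adjusted p = 0.091 and 0.178 for Ndufaf2, 0.0738 and 0.096 for Cox6a2). The Cox6a2 call also ended without class 1 replicate 2 (0.0544), and the Ndufaf2 call without either class 1 library (0.129 and 0.118) or either class 3 library (0.061 and 0.0588). In class 2, both libraries lay below both class 1 libraries for 44 of the 88 genes and above for 2, against 33.9% and 25.1% of all genes. In class 3 no gene passed, against 5.44% of all genes higher and 7.94% lower, with 2 at an unadjusted p under 0.05 in edgeR (27.6% of all genes) and 0 in DESeq2. Both class 3 libraries lay above both class 1 libraries for 34 of the 88 genes and below for 11, against 31.4% and 31.5% of all genes. Atp5s had 2.34 and 3.70 CPM in class 1 and 7.02 and 6.59 in class 3, Cox6a2 0.844 and 0.755 in class 3, and Cox7a1 0.719 and 1.23 in class 1 and 0.498 and 0.515 in class 3.

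In class 4, 7 genes were higher than in class 1 and none lower, against 10.2% and 15% of all genes. They were the assembly factors Ndufaf4 and Ndufaf1, the complex I subunits Ndufab1 (also the acyl carrier protein of mitochondrial fatty acid synthesis), Ndufa5 and Ndufb7, and Uqcrh and Cox7c. Ndufaf4 had 14.5 and 20.1 CPM in class 1 and 45.5 and 31.4 in class 4, a rise of 1.16 (SE 0.28, edgeR adjusted p = 0.0203). Ndufaf1 had 21.6 and 16.9 CPM against 43.0 and 30.7, a rise of 0.94 (SE 0.26, edgeR adjusted p = 0.031). Ndufab1 had 34.1 and 27.2 CPM against 55.8 and 51.5, a rise of 0.81 (SE 0.20, edgeR adjusted p = 0.0221). In each the class 4 libraries lay above the class 1 libraries, as they did for 47 of the 88 genes (below for 16), against 30.2% and 31.8% of all genes. The count of 7 fell to 0 without class 1 replicate 1 and to 1 without class 1 replicate 2, was 3 without either class 3 library or class 4 replicate 2, and rose to 23 with column totals (16.6% of all genes). By exon length, all genes had median log2 changes of 0.43 up to 750 bases, 0.24 for over 750 to 1500, 0.02 for over 1500 to 3000 and -0.11 above, and the respiratory genes 0.30, 0.10, -0.07 and, for 5 genes, 0.22. Monocyte markers summed to 59607 and 55048 CPM in class 1 and to 17752 and 17683 in class 4, below the neutrophil markers there, and mast cell and basophil markers to 5.03 and 11.4 and to 1974 and 928. Neutrophil markers summed to 980.0 and 1580 CPM in class 1 and to 51228 and 72050 in class 4, B cell markers to 318 and 353 and to 2365 and 1960.0, and erythroid markers to 42.4 and 98.5 and to 3219 and 4162. The part of markers and length in these rises was not tested. The comparisons of classes 2, 3 and 4 share the class 1 libraries.

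**Figure D5:**
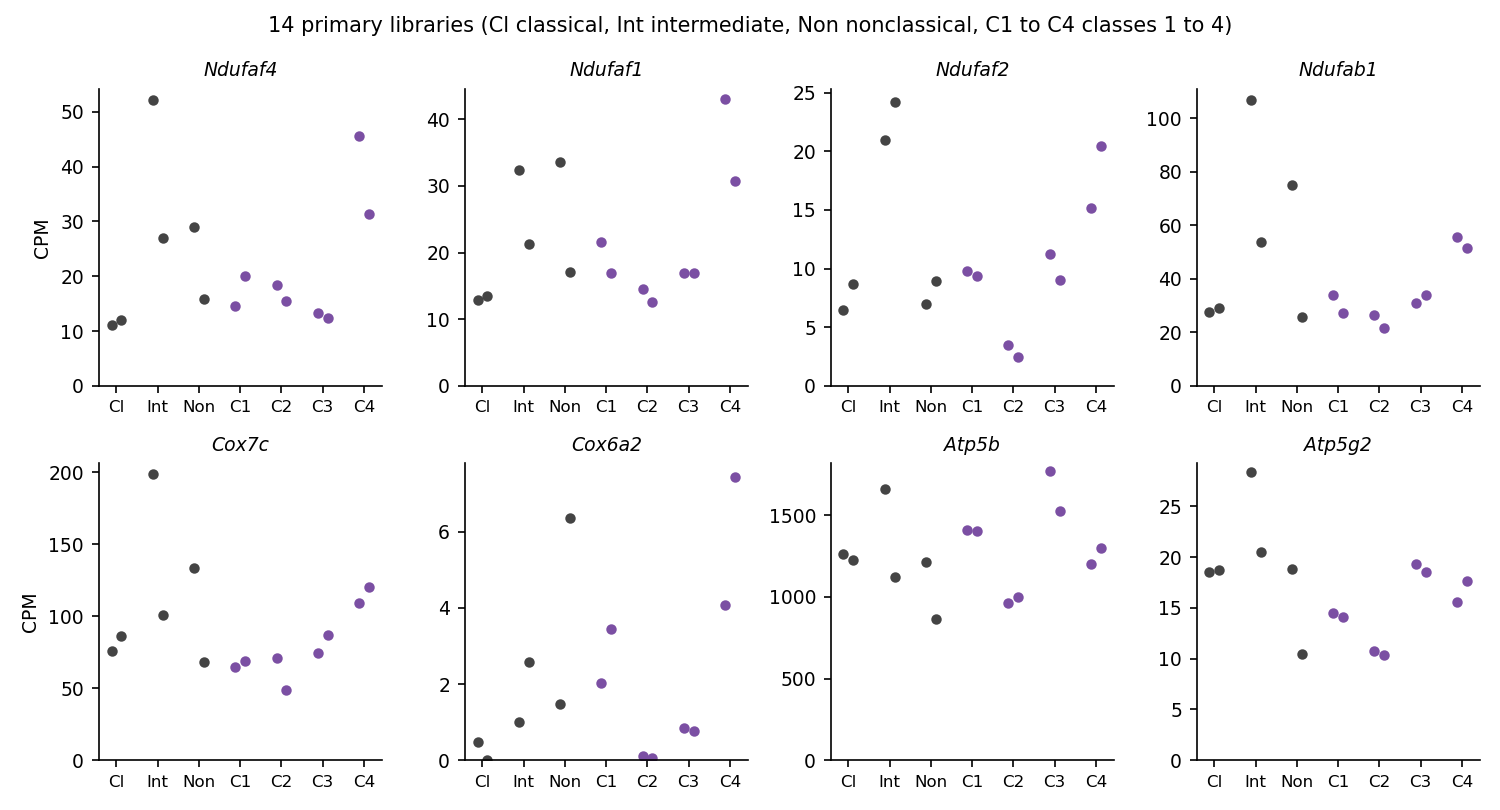
CPM of 8 genes in the 14 primary libraries, with both replicates of a group side by side (dark: classical, intermediate and nonclassical; purple: classes 1 to 4). Ndufaf4, Ndufaf1, Ndufab1 and Cox7c lie above class 1 in both class 4 libraries, Ndufaf2 and Cox6a2 lie lower in class 2 than in the other classes, and intermediate replicate 1 has the highest level of Ndufab1 and Cox7c.

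Set beside each other, primary and cultured cells had a median log2 difference of 0.33 for these genes between the medians of the 14 primary and the 48 clone libraries (0.01 for 12152 genes at a mean of 1 TMM-scaled CPM or more, both on log2(CPM + 0.5)). For 4 of the 88 every primary library lay above every clone library, against 2.79% of those genes: Atp5g2 at 10.4 to 28.3 CPM against 0 to 0.684, Atp5g1 at 60.4 to 332 against 0.868 to 35.0, Cox7c at 48.8 to 199 against 2.19 to 19.6 and Atp5h at 163 to 462 against 36.4 to 135. Atp5g2 lay under 1 CPM in every clone library, so it reached the level limit only through the primary libraries. Its place among the 4 follows from that selection and is no support for a difference. Of the 88, Cox6a2 had the lowest primary level relative to the clones, with medians of 1.24 and 6.96 CPM. Atp5g1, Atp5g2 and Cox7c belong to genes that have processed copies elsewhere in the genome, so their counts are uncertain, here and in the comparisons above. How much the copies change these counts was not tested. Culture, sorting and any difference in library handling cannot be told apart here, and no test was made.

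The wider mitochondrial program was read from the same fit, in lists that hold no gene of the 88. In the paired comparison 56 of 77 mitochondrial ribosomal protein genes fell and 2 rose (median -0.62), as did 14 and 2 of 17 genes of the citric acid cycle and pyruvate dehydrogenase (median -0.47), against 40.1% and 38.5% of all genes. The largest falls in each were Mrps31 (mean 75.3 ± 17.1 to 20.5 ± 5.52 CPM, SD, n = 24, log2 change -1.84) and Suclg2, a succinyl-CoA ligase subunit (45.0 ± 8.74 to 10.9 ± 5.22 CPM, -2.12). Of 10 protein import and chaperone genes 9 fell and none rose (median -1.10), led by the chaperones Hspd1 (-2.03) and Hspa9 (-1.91). Among 10 genes of coenzyme Q synthesis 8 fell and 1 rose, with Coq8a at -1.97 and Pdss1 at -1.95. Assembly factors with other names fell in 24 and rose in 5 of 38 (median -0.53), with Lyrm7, a complex III factor, at -1.67 and Ecsit, a complex I factor, at -1.44. Among 18 genes of mitochondrial DNA upkeep and biogenesis, 10 fell and 3 rose, with the coactivator gene Ppargc1b at -1.89 and the helicase gene Twnk at -1.83.

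Smaller groups were mixed, while 40.1% of all genes fell and 38.5% rose. Of 7 electron carriers and related genes 3 fell and 2 rose, and Etfb fell by 1.01. Of 8 carriers and porins 5 fell and 2 rose, with the ADP/ATP carriers Slc25a4 and Slc25a5 falling by 1.17 and 0.94. Atpif1, which encodes the inhibitor of ATP synthase, fell by 0.91 (SE 0.16, edgeR adjusted p = 9.62e-06). Among 5 mitochondrial antioxidant genes, the peroxiredoxin gene Prdx5 rose from 218 ± 127 to 2101 ± 927 CPM (SD, n = 24), a log2 change of 3.31 (SE 0.16, edgeR adjusted p = 3.31e-16), while Prdx3 fell by 1.01 (SE 0.11, edgeR adjusted p = 1.3e-09).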

How the data were processed

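The deposited values are counts of reads per gene, made by the authors with STAR 2.7.3a, HTSeq 0.6.0 and genome build mm9, per the submitters' processing notes. The labels' protocols give total RNA and NEB library kits. Depth ran from 362033 to 47314297 counts per library, and 1 column of the table that matches no sample was not used. Symbols came from Ensembl gene identifiers, and exon lengths from an annotation of GRCm38, used only for levels per kilobase and length bins. CPM is the count over the column total, times 1000000; the level limit used plain totals, and all levels printed use totals scaled by TMM factors over the 62 libraries. Counts were tested with edgeR 4.0.16 (quasi-likelihood test, TMM scaling, filterByExpr with a minimum count of 10, Benjamini-Hochberg adjustment over all genes tested, threshold 0.05) in R 4.3.3, tested on simulated data. The clone was a block in the paired comparison because both libraries of a pair come from the same line. Within-clone deviations from the state mean over all clones correlated at a mean of 0.24 and over 0.1 in 21 of 24 clones. These values include any difference between the clone sets, so they do not measure the line alone. Subsets and classes were fitted separately, without a block. Clone correlations used log2 CPM with a prior count of 2 and permutation p-values. Alternatives were DESeq2 1.42.0 and its size factors, column totals, no filter or a minimum count of 30, all 14 primary libraries in 1 fit, a replicate block, each clone set alone and left-out libraries. Comparisons between clone sets within a state, and fits without clone 24, were chosen after seeing the data. Genes were named by rule: in each complex the largest rise and fall past the threshold and the highest mean CPM, the Sdh genes and the Cox4i, Cox6a, Cox6b, Cox7a, Cox7b, Cox8, Ndufa4 and Atp5g families; up to 4 (clone set difference), 5 (clone effect and correlation) or 3 a direction (subsets and classes, else up to 3 whose groups do not overlap) elsewhere; and up to 2 in each related list. Others, such as Ndufaf2, Ndufaf6, Ndufb3, Ndufa8 and genes listed by a count, were named after their values were seen. The members, lists and rules were chosen with earlier results of these data known. The values of 1 gene that the naming rule picks are not reported here.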

Additional observations from a re-analysis of the deposited data

Results flagged for a closer look

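The state change differed between the clone sets (clones 15 to 25 minus clones 1 to 13, edgeR interaction test, Benjamini-Hochberg adjusted p) for 7 of the genes described singly. The log2 difference was 0.87 for Ndufs3 (adjusted p = 0.000391), 0.83 for Sdhb (0.00153), 0.95 for Cox6a1 (0.00341) and 1.15 for Ndufa4 (0.00494). It was 1.06 for Ndufa12 (0.0116), 0.87 for Uqcrq (0.0386) and 0.49 for Atp5b (0.0489). The sets also differ in depth and in the values by exon length given above, and the part of either was not tested.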

How the results depend on the processing

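The paired counts (42 lower, 4 higher) were 71 and 1 with column totals (55.5% and 26.0% of all genes). They were 65 and 2 in clones 1 to 13 (39.3% and 40.9%) and 12 and 12 in clones 15 to 25 (29.9% and 29.1%). The higher count was 1 with no filter and 2 with no replicate block. The clone effect (8) passed for 5 genes with column totals and 0 in each set alone. The correlation (6) passed for 2 genes by Spearman's rho and for 0 when centred on the set, in each set alone or on depth residuals. In intermediate against classical cells (0 higher) 6 passed with all 14 primary libraries in 1 fit (6.32% of all genes) and 8 with DESeq2 (12.7%). DESeq2 also called 1 gene lower in nonclassical than in intermediate cells (4.35%). The class test (17) passed for 48 genes with column totals, 31 with no filter, 1 with all 14 libraries, 39 with DESeq2 and 7 to 28 with 1 library left out. Class 2 against class 1 (2 lower) gave 0 with all 14 libraries, 6 with DESeq2 and 0 to 2 with 1 library left out. Class 3 gave 2 higher with column totals (9.67% of all genes). Class 4 (7 higher) gave 23 with column totals, 0 with all 14 libraries and 0 to 10 with 1 library left out, and 0 to 2 lower. In monocytic cells 1 gene was lower between sets with column totals (3). The class test passed for 46.7% of all genes with column totals and 52.7% with DESeq2, and class 4 gave 16.6% higher with column totals. Where no share of all genes is given, a count cannot be read as particular to these genes. The causes were not tested. Signs turned for genes that mostly did not pass. In clones 15 to 25 the log2 change was 0.10 for Sdha, 0.087 for Sdhc, 0.55 for Cox6a1 and 0.37 for Cox6b1. In clones 1 to 13 it was -0.026 for Cox4i1, -0.33 for Sdhb, -0.0011 for Cox7a1 and -0.23 for Cox7a2. With column totals it was -0.12 for Cox7a2l, -0.26 for Cox4i1, -0.40 for Sdhb, -0.13 for Cox7a1 and -0.40 for Cox7a2. With no filter it was -0.074 for Sdhb and -0.075 for Cox7a2, and with no replicate block -0.056 for Cox7a2. Cox6a1 was at 0.014 without clone 21 and 0.0045 without clone 24, and between sets in monocytic cells without clone 24 it was at -0.022 and Ndufa4 at -0.038. Within clones 1 to 13 r was -0.058 for Cox7a1, -0.10 for Sdhd, -0.24 for Cox6a2 and -0.17 for Atp5l, and on depth residuals -0.025 for Sdhd. In the primary groups the replicate numbers are only shared (r of deviations 0.15 to 0.36 in subsets, -0.02 to 0.06 in classes), and with a replicate block 0 genes passed in the subsets, 18 in the class test, 2 lower in class 2 and 5 higher in class 4. Clone 21, at 362033 counts, limits low genes.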
